A study of Mus musculus with 12 samples.

Results

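Mouse bone marrow-derived macrophages given PgLPS together with CS-PA/CNP were compared with untreated control macrophages, to measure how far the combined treatment left the messenger levels from those of untreated cells. The comparison used 6 of the 12 libraries of the series: 3 with both agents and 3 controls. They were chosen as the count columns lettered LM and C, where C was read as control, M as CS-PA/CNP and L as PgLPS, which is an interpretation of the letters, since the labels do not explain them. All groups were primary wild-type cells from marrow, cultured as macrophages. Apart from control and both agents, 3 libraries had PgLPS alone and 3 had CS-PA/CNP alone. The labels give no dose, time, order of addition or animal age, and they expand neither abbreviation, so none is expanded here. Some titles call libraries biological replicates, but nothing says that the libraries of a group came from separate animals or cultures, so p-values measure the spread between these libraries, which may be technical. The series title names a hydrogel for periodontitis and hypertension.

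Reads counted in genes numbered 15570148 to 17339556 in the control libraries and 16301947 to 19422021 in those with both agents. Levels are given as CPM, counts per library total after TMM scaling, which sets the scale from the bulk of genes. Its factors were 1.147 to 1.161 in control and 0.890 to 0.901 with both agents. Without it, on plain library totals, the median log2 fold change over tested genes moved by -0.362, so the sign of small changes depends on the scale. Library 2 stood apart in the group with both agents and in that with PgLPS alone, and library 1 stood apart among the controls. The chi-square per gene between libraries of both agents was 11.93 and 13.43 for pairs with library 2 and 2.92 for the other pair, and with PgLPS it was 17.04 and 9.62 for pairs with library 2 and 5.50 for the other. Without library 2 of both agents 3332 genes rose and 3159 fell against control, and 2110 differed from PgLPS, against 3457, 3305 and 2268 with it. Without library 2 of PgLPS 2350 differed. Between controls the chi-square per gene was 8.16 and 6.66 for pairs with library 1 and 2.75 for the other pair. Without control library 1, 3183 genes rose and 3122 fell against control. The mitochondrial share of reads was 1.62% to 1.82% for control and 1.21% to 1.28% with both agents. All 25 macrophage identity genes on the marker list were tested, and their summed level was 23316 to 24949 CPM in control and 33209 to 35017 CPM with both agents. Of the 25, 16 rose and 5 fell (13 and 10 on library totals), beside 29.7% and 28.4% of all tested genes. B cell markers summed to 2.74 to 4.14 CPM and 3.06 to 4.57 CPM, and T and NK cell markers to 7.44 to 10.4 CPM and 5.67 to 11.7 CPM, in the same order. Of these, 0 of 4 and 0 of 1 tested were called. Cd3d, Cd8a, Cd2, Ebf1, Tpsb2, Cma1 and Hbb-bt had no reads in either group.

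Macrophages sense bacterial products through Toll-like receptors, which signal through NF-kB to raise cytokines, chemokines and their own feedback inhibitors, and through IRF factors to raise interferon and, through it, many antiviral genes. NRF2 is the transcription factor that raises antioxidant enzymes when oxidants or electrophiles modify its inhibitor. Activated macrophages also commonly leave the cell cycle and remodel their lipid, iron and antigen-presenting machinery.

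Across all expressed genes, cells with both agents stood far from untreated cells, at a distance somewhat below that of PgLPS alone. The distance of a library is the root mean square, over the 11656 tested genes, of its log2 CPM difference from the control mean. It was 1.20, 1.166 and 1.196 in the libraries with both agents, and 0.302, 0.276 and 0.280 in the control libraries, each set against the mean of the other two. With PgLPS alone it was 1.391, 1.386 and 1.371, and with CS-PA/CNP alone 0.398, 0.366 and 0.382. All libraries with both agents lay below all libraries with PgLPS and far above the controls. The mean with both agents, 1.187 ± 0.019 (SD, n = 3), was 85.9% of the mean with PgLPS, 1.383 ± 0.010 (SD, n = 3). A 2-sided exact permutation test of these 3 against 3 libraries gave p = 0.1, the smallest that this design allows. Both treated groups were measured against the same control libraries.

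Counted in reads instead of folds, the order of the groups was the same. The share of a library's reads that lay in gene-by-gene gains over the control mean was 21.8%, 21.56% and 21.6% with both agents, or 21.65% ± 0.13 (SD, n = 3). It was 26.4% ± 0.18 (SD, n = 3) with PgLPS, 6.72% ± 0.45 (SD, n = 3) with CS-PA/CNP and 2.99% ± 0.83 (SD, n = 3) among the controls. These shares use plain library totals. On TMM-scaled totals the means were 33.99% with both agents, 41.31% with PgLPS, 7.12% with CS-PA/CNP and 2.62% among the controls, in the same order. These scaled values do not add up to the whole library, so they are not shares of its reads. They also hold the difference in scale between the groups.

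**Figure D1:**
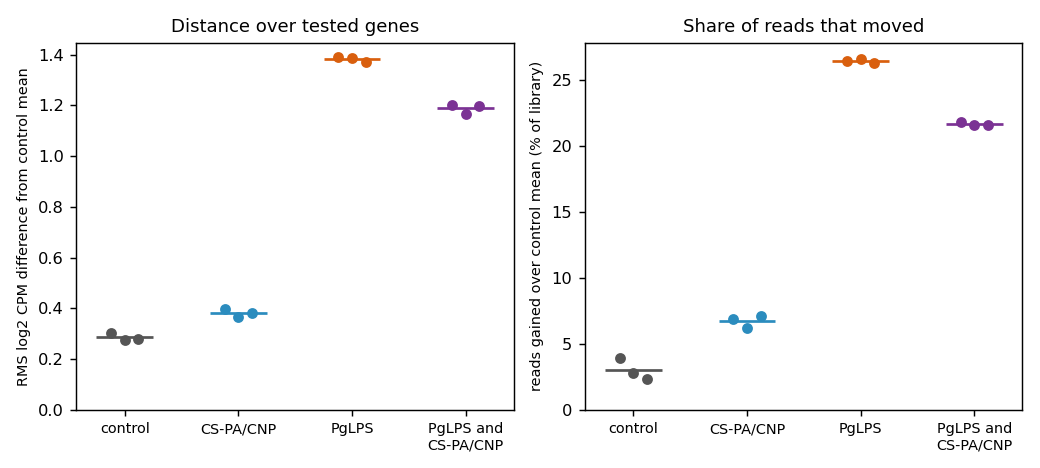
Left, root mean square log2 CPM difference of each library from the control mean, over tested genes. Right, percent of each library's reads gained over the control mean. Points are libraries and lines are group means. With both agents the 3 libraries lie at 1.166 to 1.20 on the left, below the 3 PgLPS libraries and above the other groups.

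Of the 11656 tested genes, 6762 differed between both agents and control at an edgeR BH-adjusted p under 0.05, which is 58.0%. Of these, 3457 rose (29.7%) and 3305 fell (28.4%), so that 51.1% of the calls were rises. On library totals 21.3% were rises. Most changes were small: the median absolute log2 fold change was 0.38, the quartiles were 0.16 and 0.85, and the 90th percentile was 1.80. At least a 2-fold change was seen in 1138 genes that rose (9.76%) and 1157 that fell (9.93%), and at least a 4-fold change in 574 (4.92%) and 410 (3.52%). The 3 libraries with both agents all lay above the 3 controls in 3698 genes (31.7%) and all below in 3656 (31.4%). The 100 genes with the largest change held 30.6% of the summed squared log2 change, and the 1000 largest held 75.7%.

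The change was not confined to one level of expression. Ranked by mean level, genes in the lowest of 3 equal classes had a root mean square log2 change of 1.53, the middle class 0.91 and the highest 1.29. The lowest class reached down to a mean of 0.226 CPM, so its value also holds counting noise. The mean distance among the control libraries was 0.286 over all tested genes and 0.155 over genes of at least 10 CPM. The percent called rose with level, at 49.9%, 54.0% and 70.1%, as the reads behind each value did. Many genes ended close to untreated cells: for 5088 genes (43.7%) the 95% interval of the fold lay within 1.5-fold of control in both directions. These split into 3416 genes that were not called and 1672 that were called with a small change. A further 1478 genes were neither called nor shown to lie within 1.5-fold.

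**Figure D2:**
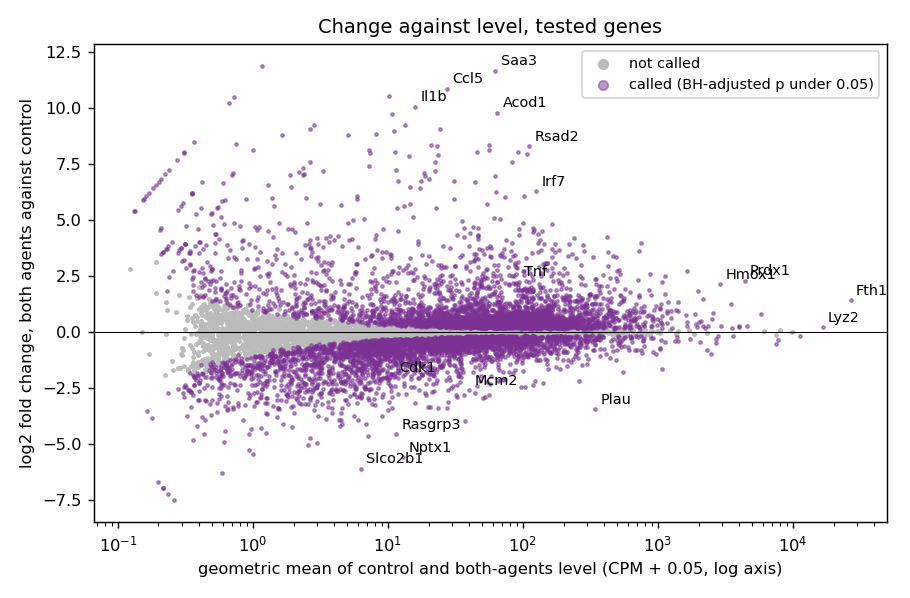
Log2 fold change of both agents against control (vertical) by the geometric mean level of the 2 groups in CPM on a log axis, 1 point per tested gene. Called genes are purple and the others grey. Saa3 and Ccl5, among the largest rises, start from near 0 in control, while Prdx1, Hmox1 and Fth1 rise at high levels and Plau falls.

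Reads gained were counted gene by gene. Fth1, the heavy chain of the iron store ferritin, took 1.88% of reads in control and 3.92% with both agents and alone gained 2.04 percentage points. Prdx1, a peroxiredoxin that removes peroxides, went from 0.228% to 0.869%, and Hmox1, which breaks down haem, went from 0.159% to 0.548%. Next by reads gained came Saa3, Cybb, Tgfbi, Hspa8, Adgre1, Rnf213 and Ccl9. Cybb, the membrane core of the phagocyte oxidase, had a log2 fold change of 2.72, and Tgfbi, a secreted matrix protein, 3.97. The 15 genes with the largest gains held 5.61 of the 21.5 points gained, or 26.1%. Among the losses by share of reads, Gpnmb, a lysosomal and membrane glycoprotein, went from 1.04% to 0.552%, Apoe, the lipid carrier, from 0.995% to 0.614%, and Spp1, the secreted osteopontin, from 0.219% to 0.0544%. The lysosomal protease Ctsb went from 1.37% to 0.954%. On the TMM scale the log2 fold changes were -0.55 for Gpnmb, -0.34 for Apoe and -0.16 for Ctsb, so their loss is smaller there. Genes in this account that the gene lists do not name were chosen after their values were seen.

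Per gene length and library total, the most abundant messenger stayed Lyz2, lysozyme, with a mean of 13479 reads per kilobase and 1e+06 reads in control and 12115 with both agents. On the same scale Fth1 stood next with both agents, at 11290 against 5408 in control, and Prdx1 moved from 750 to 2856. On the TMM scale Lyz2 was higher instead (log2 fold change 0.21).

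The 10 largest rises among genes of at least 5 CPM were in Serpinb2, Saa3, Ccl5, Cxcl3, Apol9b, Itgb8, Il1b, Acod1, Gbp5 and Ifi208. Saa3 (chromosome 7), an acute-phase serum amyloid that macrophages secrete, lay at 0.524, 1.21 and 1.45 CPM in control and 3348, 3930 and 3272 CPM with both agents. Its log2 fold change was 11.69 ± 0.62 (SE; edgeR BH-adjusted p = 1.74e-14). Ccl5 (chromosome 11), a chemokine for T cells and monocytes, lay at 0.419, 0.654 and 0.727 CPM in control and 1148, 1235 and 1057 CPM with both agents, a log2 fold change of 10.89 ± 0.41 (SE; edgeR BH-adjusted p = 4.3e-18). Cxcl3 (chromosome 5), which attracts neutrophils, lay at 0, 0.101 and 0.616 CPM in control and 407, 250.4 and 410.5 CPM with both agents. In all 3 genes the groups were far apart. The log2 fold change of Cxcl3, 10.56 ± 0.86, rests on few control reads: it was 9.97 without control library 1 and 12.56 without control library 3. Acod1, the enzyme that makes itaconate, lay at 1.153, 2.51 and 2.74 CPM in control and 2000, 1756 and 2002 CPM with both agents, with a log2 fold change of 9.81 ± 0.17 (SE; edgeR BH-adjusted p = 5.68e-20). Gbp5, a guanylate-binding protein of cell-autonomous defence, rose by 9.76 ± 0.41 in log2 (10.62 without control library 3), and Ifi208, an interferon-inducible gene of the Ifi200 family, by 9.26 ± 0.55. Serpinb2, a protease inhibitor also known as PAI-2, had no reads in control and 32.9, 21 and 29.3 CPM with both agents. That was at least 519-fold higher, against a floor of 3 reads summed over the control libraries (0.0528 CPM). By the same floor Apol9b was at least 199.8-fold and the integrin subunit Itgb8 at least 163-fold higher. Such floors, and the exact intervals of the count ratios of Il6 and Nos2, cover counting error only.

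The largest falls were in genes at low to moderate control levels. Slco2b1 (chromosome 7), an organic anion transporter, lay at 53.7, 52.9 and 47.1 CPM in control and 0.781, 0.926 and 0.477 CPM with both agents, a log2 fold change of -6.10 ± 0.34 (SE; edgeR BH-adjusted p = 3.89e-14). Nptx1 (chromosome 11), a pentraxin best known from synapses, lay at 88.6, 96.5 and 77.8 CPM in control and 1.63, 1.39 and 2.52 CPM with both agents, a log2 fold change of -5.58 ± 0.20 (SE; edgeR BH-adjusted p = 4.17e-16). Rasgrp3, a Ras and Rap activator, lay at 59, 55.9 and 53.1 CPM in control and 2.54, 2.49 and 1.98 CPM with both agents. The groups were separated in each of these genes. Sox4, a transcription factor, had a log2 fold change of -4.64 ± 0.20, Tox2 -5.05 ± 0.40 and Lama3, a laminin chain, -4.96 ± 0.41. Ankle1, Gabbr2, Nanos1 and Tpbgl completed the 10, all under 1 CPM with both agents. Their folds shifted with single libraries. Without library 2 of both agents the log2 fold changes were -6.98 for Ankle1, -7.17 for Gabbr2 and -5.43 for Nanos1, against -5.25 ± 0.78, -5.45 ± 0.69 and -4.75 ± 0.43. Tpbgl had -4.49 ± 0.67, which was -5.74 without library 1 of both agents and -3.86 without library 2.

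Most genes of the acute inflammatory response were raised. Of 14 tested pro-inflammatory cytokines, 13 rose, none fell and 1 was not called, with a median log2 fold change of 2.82. Over all tested genes the median was -0.01, with 29.7% rising and 28.4% falling. These values stand beside every later list count against control. Il1b, the cytokine that needs inflammasome cleavage, lay at 0.105, 0.754 and 0.504 CPM in control and 494, 474 and 528 CPM with both agents. Its log2 fold change was 10.07 ± 0.44 (SE; edgeR BH-adjusted p = 1.08e-17), and 10.66 without control library 2. With PgLPS alone its mean was 3064 CPM, and both agents stood below PgLPS (log2 difference -2.62, edgeR BH-adjusted p = 5.01e-11). Il1a, its sister cytokine, lay at 1.05, 0.754 and 1.51 CPM in control and 124, 96.1 and 141 CPM with both agents, below PgLPS (log2 difference -2.41). Both genes thus remained far above control without overlap. In the list of 14, 11 cytokines were below PgLPS and none above, at a median log2 difference of -1.33. Over all tested genes 19.5% were called in either direction. Tnf, an early NF-kB target, lay at 40.9, 41.8 and 44.9 CPM in control and 189, 205 and 216 CPM with both agents, with a log2 fold change of 2.26 ± 0.08 (SE; edgeR BH-adjusted p = 2.51e-14). Against PgLPS the difference of Tnf did not pass (log2 -0.22, unadjusted 95% interval -0.38 to -0.05, edgeR BH-adjusted p = 0.0582). Il6 was at 0, 0 and 0.112 CPM in control and 6.25, 4.28 and 6.13 CPM with both agents, with 2 reads over the 3 control libraries. The ratio was 156.2, with an exact 95% counting interval of 42.81 to 1297. The fitted log2 fold change of Il6 was 7.03 ± 1.10, and 9.58 without control library 3, which holds both of these reads, so that this value depends on the prior count. Tnfsf9, a ligand of T cell costimulation, was the cytokine on the list that was not called, at 3.77, 4.73 and 4.42 CPM in control and 4.95, 2.84 and 4.91 CPM with both agents.

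Chemokines, which guide leukocytes, also stood far from control. Among 18 tested, 16 rose, 1 fell and 1 was not called, with a median of 4.62 (16 higher, 2 lower and 4.26 on library totals). The 1 that fell was Cxcl14, with a log2 fold change of -1.18. Its reads summed over the libraries of a group were 25791 in control, 9388 with both agents and 5046 with PgLPS. Cxcl2, a neutrophil attractant, lay at 12.2, 12 and 11.1 CPM in control and 425, 307 and 444 CPM with both agents, a log2 fold change of 5.06 ± 0.12 (SE; edgeR BH-adjusted p = 5.73e-17). Cxcl10, which attracts activated T cells and is raised by interferon, lay at 0.524, 0.754 and 1.79 CPM in control and 601, 533 and 509 CPM with both agents. Its log2 fold change was 9.08 ± 0.30, and 9.71 without control library 3. Its levels with both agents did not differ detectably from PgLPS (log2 -0.03, 95% interval -0.27 to 0.21). In the list of 18, 11 chemokines were below PgLPS and 1 above, at a median log2 difference of -0.59. Over all tested genes 19.5% were called in either direction. Ccl6, a constitutive macrophage chemokine, was not called, at 218, 226 and 228 CPM in control and 211, 299.8 and 209.9 CPM with both agents, and the groups overlapped. On library totals its sign turned to -0.26.

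Effectors of classical activation all rose, 20 of 20, with a median of 5.33. Marco, a scavenger receptor for bacteria, lay at 6.08, 6.79 and 7.16 CPM in control and 1642, 1719 and 1680 CPM with both agents, with a log2 fold change of 7.98 ± 0.10 (SE; edgeR BH-adjusted p = 1.84e-20). Sod2, the mitochondrial superoxide dismutase, lay at 97.6, 94 and 99.1 CPM in control and 1832, 1894 and 1797 CPM with both agents. Nos2, the inducible nitric oxide synthase, reached only 3.26, 3.3 and 2.11 CPM with both agents, against 3 reads over the control libraries. Its ratio was 55.27, with an exact 95% counting interval of 18.52 to 271.3. The fitted log2 fold change of Nos2 was 5.60 ± 0.98, and 8.64 without control library 1, which holds all of its control reads. Nos2 lay below PgLPS (log2 difference -2.28, edgeR BH-adjusted p = 1.34e-06). In the list of 20, 19 effectors were below PgLPS and none above, at a median log2 difference of -1.03. Over all tested genes 19.5% were called in either direction. Il10, the anti-inflammatory cytokine, lay at 2.46, 2.46 and 1.79 CPM in control and 17.5, 13.2 and 13 CPM with both agents, a log2 fold change of 2.69 ± 0.19 (SE; edgeR BH-adjusted p = 2.01e-10). Unlike Il1b and Nos2, it was above PgLPS, by 0.45 in log2 (edgeR BH-adjusted p = 0.0454).

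**Figure D3:**
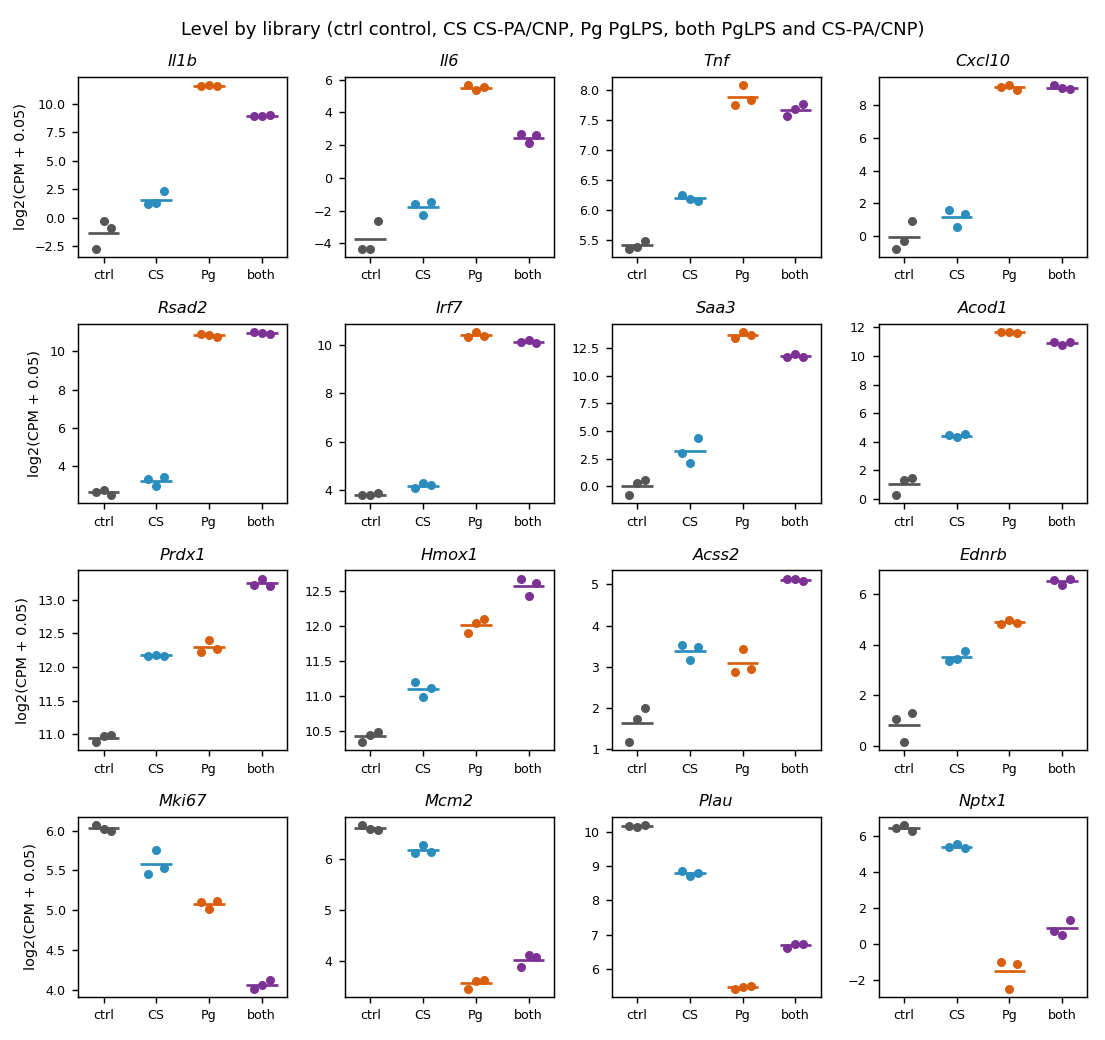
Levels of 16 genes by library, as log2 of CPM plus 0.05, in control, CS-PA/CNP, PgLPS and both agents. Points are libraries and lines are group means. Il1b and Il6 with both agents lie between control and PgLPS, Rsad2 and Cxcl10 lie beside PgLPS, and Prdx1, Hmox1, Acss2 and Ednrb lie above every other group.

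Inhibitors and other regulators of the same pathway were mostly raised as well. NF-kB feedback genes and regulators, a list that also holds subunits and targets, numbered 18 higher and 1 lower of 19, with a median of 1.88. The 1 that fell was Tnip3 (log2 fold change -0.49). Against PgLPS 17 of the 19 were lower and none higher, at a median of -0.51. Over all tested genes 19.5% were called there in either direction. Socs3, which inhibits cytokine receptor signalling, lay at 1.62, 0.905 and 1.23 CPM in control and 409.6, 386 and 413 CPM with both agents, a log2 fold change of 8.32 ± 0.18 (SE; edgeR BH-adjusted p = 7.88e-20). Icam1, an adhesion molecule and NF-kB target, rose by 2.60 ± 0.07 and Tnip1, a ubiquitin-binding NF-kB inhibitor, by 2.02 ± 0.06. In Toll-like receptor signalling 16 of 21 rose, 3 fell and 2 were not called, with a median of 0.78 (12 higher, 3 lower and 0.42 on library totals). Irak3, an inhibitory kinase of the pathway, lay at 23.6, 26.1 and 27.3 CPM in control and 284, 259 and 278 CPM with both agents. Tlr1 rose by 2.66 ± 0.08 and Tlr2, its partner in sensing lipoproteins, by 1.82 ± 0.06, to 231, 208 and 228 CPM. Traf6, the ubiquitin ligase downstream, was not called, at 31, 32.2 and 31.3 CPM in control and 39.7, 30.7 and 39.2 CPM with both agents. In the inflammasome and lytic death list 13 of 15 rose and 2 fell, with a median of 1.16 (11 higher and 3 lower on library totals): Mlkl, the executor of necroptosis, rose by 4.36 ± 0.09, Casp4, a sensor of cytosolic lipopolysaccharide, by 3.34 ± 0.13, and Mefv, which encodes pyrin, by 2.94 ± 0.12.

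Interferon-stimulated genes rose in 33 of 33 tested, with a median log2 fold change of 5.08. Rsad2, which encodes viperin, an antiviral enzyme, lay at 6.24, 6.79 and 5.54 CPM in control and 2054, 1958 and 1942 CPM with both agents. Its log2 fold change was 8.32 ± 0.10 (SE; edgeR BH-adjusted p = 1.62e-20). Irf7, the factor that amplifies interferon, lay at 13.8, 13.9 and 14.7 CPM in control and 1120, 1155 and 1067 CPM with both agents, a log2 fold change of 6.30 ± 0.08 (SE; edgeR BH-adjusted p = 1.84e-20). Zbp1, a sensor of Z-form nucleic acid, lay at 4.56, 3.82 and 4.48 CPM in control and 447, 454 and 434 CPM with both agents. In these 3 genes no library with both agents came near the controls. Against PgLPS the difference of Rsad2 did not pass (log2 0.12, 95% interval -0.03 to 0.26). In the list of 33, 11 genes were below PgLPS and 1 above, at a median log2 difference of -0.16. Over all tested genes 19.5% were called in either direction. The median of the list with PgLPS alone, against the same controls, was 5.28.

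Promoters of the genes that rose most held the interferon-response letters more often than other promoters. RefSeq promoters of build GRCm38.p6 were read 250 bases upstream of the start for the 7464 tested genes (64.0%) with 1 listed start. The letters GAAANNGAA, on either strand, stood in 21.4% of the 374 such promoters of genes at least 4-fold higher and 6.46% of all 7464. They stood in 6.18% of the 259 promoters of genes at least 4-fold lower. For the interferon-stimulated list it was 12 of 21 (57.1%). The NF-kB letters GGGANTTCC stood in 2.14% of the higher and 2.02% of all promoters. Among the lists they stood in 3 of 14 promoters of NF-kB feedback genes (21.4%), 2 of 12 of chemokines (16.7%) and 0 of 9 of pro-inflammatory cytokines. That pattern leaves out longer variants, such as gggaatttcc in the Cxcl2 and Cxcl3 promoters and gggattttcc in that of Il6. A low share of GGGANTTCC therefore does not show that NF-kB sites are absent. These are matches of letters, not measured binding. The promoters of Cxcl10 (chr5:92348890-92349139, minus strand) and Rsad2 (chr12:26456453-26456702, minus strand) are shown 5′ to 3′ because the levels of both genes far above control did not differ detectably from PgLPS. Capitals mark, in Cxcl10, GAAANNGAA, GGGANTTCC and TGACNNNGC on the opposite strand, in that order, and in Rsad2, TGACNNNGC and then GAAANNGAA, both on the opposite strand.
Cxcl10: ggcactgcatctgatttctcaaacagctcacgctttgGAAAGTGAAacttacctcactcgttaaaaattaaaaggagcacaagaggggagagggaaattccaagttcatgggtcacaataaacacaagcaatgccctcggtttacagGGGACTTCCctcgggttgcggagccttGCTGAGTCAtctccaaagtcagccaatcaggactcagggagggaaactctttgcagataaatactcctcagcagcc
Rsad2: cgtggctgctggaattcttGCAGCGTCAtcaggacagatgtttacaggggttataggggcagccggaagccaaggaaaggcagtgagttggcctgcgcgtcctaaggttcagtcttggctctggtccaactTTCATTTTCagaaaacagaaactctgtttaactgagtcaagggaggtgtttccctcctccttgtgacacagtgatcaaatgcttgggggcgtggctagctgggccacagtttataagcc

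Antigen presentation was raised in both classes. All 17 MHC class I presentation genes rose, with a median of 2.31. Tap1, the peptide transporter, lay at 44.2, 54.8 and 51 CPM in control and 421, 429 and 416 CPM with both agents, and its log2 fold change was 3.08 ± 0.07 (SE; edgeR BH-adjusted p = 6.61e-17). Tapbp, which loads peptide onto class I, rose by 2.55 ± 0.07, and H2-T23, a non-classical class I molecule, by 2.52 ± 0.08. B2m, the class I light chain, had a log2 fold change of 1.49. In class II 8 of 9 rose and 1 was not called, at a median of 0.66. H2-Ab1 lay at 83.4, 90.7 and 95.9 CPM in control and 244, 226 and 234 CPM with both agents, and H2-DMb2, at 2.04, 1.36 and 1.79 CPM in control and 0.716, 1.45 and 2.52 CPM with both agents, was not called. On library totals class II stood at 6 higher and 1 lower, at a median of 0.30.

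Surface receptors were counted beside all tested genes, of which 29.7% rose and 28.4% fell against control. Chemokine and purinergic receptors numbered 15 higher, 5 lower and 2 not called of 22, with a median of 0.75 (14 higher, 5 lower and 0.38 on library totals). Fpr1 and Fpr2, receptors for formyl peptides of bacteria, lay at 1.83, 1.36 and 1.57 CPM and 1.57, 2.01 and 1.79 CPM in control. With both agents they reached 321, 274 and 319.8 CPM, and 269, 276 and 259 CPM, log2 fold changes of 7.58 ± 0.17 and 7.22 ± 0.14. Ccr1, a receptor of inflammatory chemokines, rose by 1.83 ± 0.06. Gpr35 was not called, at 8.18, 7.64 and 8.9 CPM in control and 9.57, 10.2 and 8.93 CPM with both agents. Scavenger, efferocytosis and lectin receptors numbered 12 higher, 7 lower and 3 not called of 22, with a median of 0.72 (12 higher, 9 lower and 0.36 on library totals). Clec4e, which encodes Mincle, a glycolipid receptor, lay at 34.7, 27.6 and 30.3 CPM in control and 915, 840.4 and 888 CPM with both agents, and Clec4a1 rose by 3.97 ± 0.06. Msr1, a scavenger receptor for modified lipoproteins, lay at 506, 479 and 499.7 CPM in control and 2421, 2274 and 2277 CPM with both agents.

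Antioxidant genes of the NRF2 programme were raised. Of 22 tested, 20 rose, 1 fell and 1 was not called, with a median of 0.88 (15 higher and 2 lower on library totals). Prdx1 lay at 1893, 2018 and 2034 CPM in control and 9495, 10187 and 9430 CPM with both agents, a log2 fold change of 2.29 ± 0.05 (SE; edgeR BH-adjusted p = 3.29e-17). Hmox1 lay at 1300, 1393 and 1435 CPM in control and 6557, 5507 and 6276 CPM with both agents, a log2 fold change of 2.15 ± 0.07 (SE; edgeR BH-adjusted p = 8.16e-15). No library with both agents overlapped the controls, and both genes were above PgLPS, by 0.94 and 0.56 in log2 (edgeR BH-adjusted p = 3.42e-10 and 1.21e-05). Gsr, glutathione reductase, rose by 1.60 ± 0.06 but was below PgLPS (log2 difference -0.32). In the list of 22, 17 genes were above PgLPS, 1 was below and 4 were not called, at a median log2 difference of 0.57. Of all tested genes 19.5% were called there in either direction. Osgin1 was not called, at 27.9, 36.4 and 30.7 CPM in control and 35.4, 37 and 35.3 CPM with both agents. With PgLPS alone, against the same controls, 14 rose and 4 fell at a median of 0.31, beside 32.2% and 31.6% of all tested genes. With CS-PA/CNP alone, again against these controls, 21 rose and none fell at a median of 0.86, while 12.3% of all tested genes were called in either direction. The antioxidant-response letters TGACNNNGC stood in 5 of 13 promoters of this list (38.5%), 12.8% of those of genes at least 4-fold higher and 12.1% of all. They also stood in 6 of 22 promoters of the DNA replication list (27.3%), whose genes fell. The Prdx1 promoter (chr4:116685349-116685598, plus strand) is shown because Prdx1 had the smallest adjusted p of the list. Capitals mark the match, which is on the opposite strand.
Prdx1: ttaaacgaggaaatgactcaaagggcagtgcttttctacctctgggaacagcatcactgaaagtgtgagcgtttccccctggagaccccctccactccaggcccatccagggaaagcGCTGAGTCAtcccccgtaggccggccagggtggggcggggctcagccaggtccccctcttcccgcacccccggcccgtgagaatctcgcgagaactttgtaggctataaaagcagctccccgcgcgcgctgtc

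Lipid and sterol genes were counted in a synthesis and an efflux list. In cholesterol and fatty acid synthesis 13 rose, 4 fell and 8 were not called of 25, at a median of 0.19 that turned to -0.18 on library totals, where 4 rose and 12 fell. Acss2, which makes acetyl-CoA from acetate, lay at 2.2, 3.27 and 3.97 CPM in control and 35.2, 35 and 33.9 CPM with both agents, a log2 fold change of 3.46 ± 0.18 (SE; edgeR BH-adjusted p = 3.05e-12), and above PgLPS by 2.02 (edgeR BH-adjusted p = 2.42e-08). Fasn, fatty acid synthase, fell by 0.80 ± 0.08. Acly was not called, at 222, 221 and 213 CPM in control and 242, 228 and 246 CPM with both agents. LXR targets and efflux genes numbered 4 higher, 5 lower and 3 not called of 12, at a median of 0.07 (3 higher, 8 lower and -0.29 on library totals), beside 29.7% higher and 28.4% lower over all tested genes. Abca1, the cholesterol exporter, lay at 103, 87.6 and 85.6 CPM in control and 347, 301 and 358 CPM with both agents, and Nr1h3, the LXR alpha receptor, rose by 2.19 ± 0.12. Npc2, a lysosomal cholesterol carrier, rose by 1.01 ± 0.06. Pltp was not called, at 394, 450.3 and 419 CPM in control and 414, 470.5 and 404 CPM with both agents, with overlap.

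Energy metabolism was counted in a respiratory and a glycolytic list, beside 29.7% of all tested genes that rose and 28.4% that fell. Oxidative phosphorylation genes numbered 11 higher and 15 not called of 26, with a median of 0.17 that turned to -0.19 on library totals, where 2 rose and 12 fell. Cox5a rose by 1.09 ± 0.12, Cycs, cytochrome c, by 0.68 ± 0.07 and Cyc1 by 0.43 ± 0.08. Glycolysis and hypoxia genes numbered 9 higher, 8 lower and 6 not called of 23, with log2 fold changes from -2.43 to 2.26 and a median of -0.01 (5 higher, 14 lower and -0.38 on library totals). Pfkfb3, which drives glycolytic flux, lay at 27.8, 30.4 and 30.05 CPM in control and 141, 129.6 and 152 CPM with both agents, and below PgLPS (log2 difference -1.97, edgeR BH-adjusted p = 2.11e-12). Hk3, a hexokinase, rose by 1.35 ± 0.05, while Eno1, enolase, was not called, at 965, 1001 and 1081 CPM in control and 1056, 1020 and 1022 CPM with both agents, with overlapping groups. Ribosomal protein genes lay close to control, with 30 of 39 not called, 4 higher and 5 lower, at a median of -0.02. On library totals none rose and 33 fell. Rplp0 was not called, at 922, 1024 and 1018 CPM in control and 955, 1020 and 952 CPM with both agents. Rps9 rose by 0.37 ± 0.10, and Rpl18 and Rpl27 by 0.33 ± 0.08 and 0.33 ± 0.09, both of which turned to -0.03 on library totals.

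Stress and lysosome genes were counted beside all tested genes, of which 29.7% rose and 28.4% fell against control. Unfolded protein and integrated stress response genes numbered 16 higher, 4 lower and 4 not called of 24, with a median of 0.46 (11 higher, 5 lower and 0.10 on library totals). Hspa5, the chaperone BiP of the endoplasmic reticulum, lay at 844, 832 and 859 CPM in control and 1701, 1573 and 1579 CPM with both agents, a log2 fold change of 0.94 ± 0.05 (SE; edgeR BH-adjusted p = 1.21e-11). Herpud1, a component of protein disposal there, rose by 1.12 ± 0.09, and Shmt2, a mitochondrial folate enzyme, fell by 1.46 ± 0.09. Atf3 was not called, at 306, 341 and 331 CPM in control and 341, 360.1 and 339.7 CPM with both agents. Among 28 lysosomal genes 9 rose, 16 fell and 3 were not called, at a median of -0.19 (3 higher and 21 lower on library totals). Ctsz, a cathepsin, lay at 807, 941 and 905 CPM in control and 2094, 2434 and 2163 CPM with both agents, a log2 fold change of 1.34 ± 0.08. Sgsh, a sulfatase, had a log2 fold change of -2.05 ± 0.14 and Atp6v0d2, a proton pump subunit, -1.18 ± 0.09. Lamp1 was not called, at 967, 984 and 965 CPM in control and 1002, 1021 and 928 CPM with both agents, with overlap.

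Genes of cell division were lower throughout. All 31 DNA replication genes fell, with a median of -2.12, and all 26 mitosis genes fell, with a median of -2.31, beside 28.4% falling over all tested genes. Mcm2 and Mcm4, subunits of the replicative helicase, lay at 102, 96.6 and 96 CPM in control and 14.6, 17.1 and 16.8 CPM with both agents, and at 108, 104 and 107 CPM in control and 19.9, 20.5 and 19.2 CPM with both agents, respectively. Their log2 fold changes were -2.60 ± 0.08 (SE; edgeR BH-adjusted p = 2.66e-15) for Mcm2 and -2.42 ± 0.08 (SE; edgeR BH-adjusted p = 3.22e-15) for Mcm4. Lig1, the ligase that joins new strands, had a log2 fold change of -2.81 ± 0.10 and Top2a, a topoisomerase, -2.60 ± 0.13. Cdk1, the kinase of mitotic entry, lay at 23.9, 22.6 and 20.3 CPM in control and 5.27, 6.25 and 4.91 CPM with both agents. No library overlapped in these genes. Mki67, the proliferation marker, lay at 67, 64.8 and 64 CPM in control and 16.1, 16.6 and 17.4 CPM with both agents, and was below PgLPS (log2 difference -1.02, edgeR BH-adjusted p = 1.21e-07). Against PgLPS 7 DNA replication genes were higher and 1 lower, at a median of 0.31, and in mitosis 2 were higher and 1, Mki67, lower, at a median of 0.14, beside 19.5% of all tested genes called in either direction. In bulk samples fewer dividing cells and less of these RNAs per cell cannot be told apart. The E2F letters TTTNGCGC stood in 5 of 22 promoters of the DNA replication list (22.7%), 3.86% of those of genes at least 4-fold lower, 0.802% of those at least 4-fold higher and 2.18% of all. For the mitosis list the share was not counted. Among promoters of named genes, the letters also stood in those of Cox5a and Tap1, which rose, and of Fosl2. They did not stand in those of Mcm2, Mki67 and Top2a, which fell. The Cdk1 promoter (chr10:69352913-69353162, minus strand), of a gene on the mitosis list, is shown only as an example that holds the motif, with its match in capitals.
Cdk1: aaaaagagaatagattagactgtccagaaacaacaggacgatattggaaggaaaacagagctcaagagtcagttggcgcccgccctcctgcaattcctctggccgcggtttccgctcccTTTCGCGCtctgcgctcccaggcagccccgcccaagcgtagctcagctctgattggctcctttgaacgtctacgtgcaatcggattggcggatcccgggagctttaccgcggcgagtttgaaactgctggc

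Growth factors and proteases were counted beside all tested genes, of which 29.7% rose and 28.4% fell against control. Growth and repair factors numbered 4 higher, 10 lower and 3 not called of 17, with a median of -0.80 (3 higher and 13 lower on library totals). Vegfa, the endothelial growth factor, lay at 68.6, 68.2 and 75.3 CPM in control and 14.5, 11.1 and 14 CPM with both agents, a log2 fold change of -2.43 ± 0.11 (SE; edgeR BH-adjusted p = 7.36e-13). Pdgfb, a platelet-derived growth factor chain, had a log2 fold change of -2.20 ± 0.07 and Spp1 -1.65 ± 0.08. Bmp2 was not called, at 6.03, 7.44 and 6.1 CPM in control and 3.45, 6.19 and 4.77 CPM with both agents. Proteases and the urokinase system numbered 10 higher, 5 lower and 2 not called of 17, at a median of 0.64 (8 higher, 5 lower and 0.28 on library totals). Mmp14, a membrane collagenase, lay at 10.5, 9.86 and 7.05 CPM in control and 623, 566 and 599 CPM with both agents, and Mmp13, a secreted collagenase, at 27.9, 22.4 and 25.3 CPM in control and 595, 532 and 547 CPM with both agents. Plau, urokinase, lay at 1139, 1117 and 1160 CPM in control and 98, 106 and 107 CPM with both agents, a log2 fold change of -3.46 ± 0.06 (SE; edgeR BH-adjusted p = 3.21e-19), and above PgLPS by 1.23. Mmp2 was not called, at 1.62, 1.41 and 1.06 CPM in control and 1.69, 1.85 and 1.91 CPM with both agents.

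Alternative activation and resolution genes numbered 7 higher, 6 lower and 4 not called of 17, at a median of 0.08 (6 higher, 9 lower and -0.28 on library totals), beside 29.7% and 28.4% over all tested genes. Arg1, arginase, lay at 2.78, 1.21 and 1.45 CPM in control and 54.8, 30.1 and 49.6 CPM with both agents, a log2 fold change of 4.62 ± 0.33 (SE; edgeR BH-adjusted p = 4.6e-11). Il1rn, the interleukin-1 receptor antagonist, lay at 29.6, 29.5 and 26.9 CPM in control and 711, 627 and 659 CPM with both agents, and Il4ra, the interleukin-4 receptor chain, rose by 2.77 ± 0.06. Pparg, a lipid-sensing nuclear receptor, fell by 2.22 ± 0.11. Stab1 was not called, at 1190, 1173 and 1230 CPM in control and 1356, 1097 and 1357 CPM with both agents. Osteoclast differentiation genes numbered 5 higher, 6 lower and 2 not called of 13, at a median of -0.05 (5 higher, 7 lower and -0.41 on library totals). Acp5, which encodes the osteoclast phosphatase TRAP, rose by 3.34 ± 0.10, Src by 2.91 ± 0.10 and Mmp9 by 2.80 ± 0.10. Of those that fell, Ocstamp, a membrane protein of osteoclast fusion, did so by 2.11 ± 0.55 and Atp6v0d2 by 1.18 ± 0.09, while Dcstamp, its partner in fusion, Nfatc1, the master factor of osteoclasts, Itgb3 and Tnfrsf11a, the receptor RANK, had log2 fold changes of -0.52, -0.46, -0.50 and -0.27. Fos was not called, at 217, 225 and 237 CPM in control and 221, 218 and 217 CPM with both agents.

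Of 20 genes of vascular tone and the renin-angiotensin system, 6 could be tested. Of these, 3 rose, 2 fell and 1 was not called, at a median of 0.29 (3 higher, 3 lower and -0.08 on library totals). Over all tested genes 29.7% rose and 28.4% fell. Ednrb, an endothelin receptor, lay at 2.04, 1.06 and 2.41 CPM in control and 94.5, 81.7 and 97.5 CPM with both agents, a log2 fold change of 5.64 ± 0.20 (SE; edgeR BH-adjusted p = 9.48e-16). Edn1, its ligand, had no reads in control and 1.5, 1.85 and 2.32 CPM with both agents, at least 35.6-fold higher. Ednrb was above PgLPS by 1.62, whereas Edn1 lay below PgLPS (log2 difference -1.98). Calcrl, the receptor for adrenomedullin and related peptides, fell by 0.91 ± 0.09, and Atp6ap2, the prorenin receptor, was not called, at 273, 258 and 265 CPM in control and 245, 261 and 243 CPM with both agents.

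**Figure D4:**
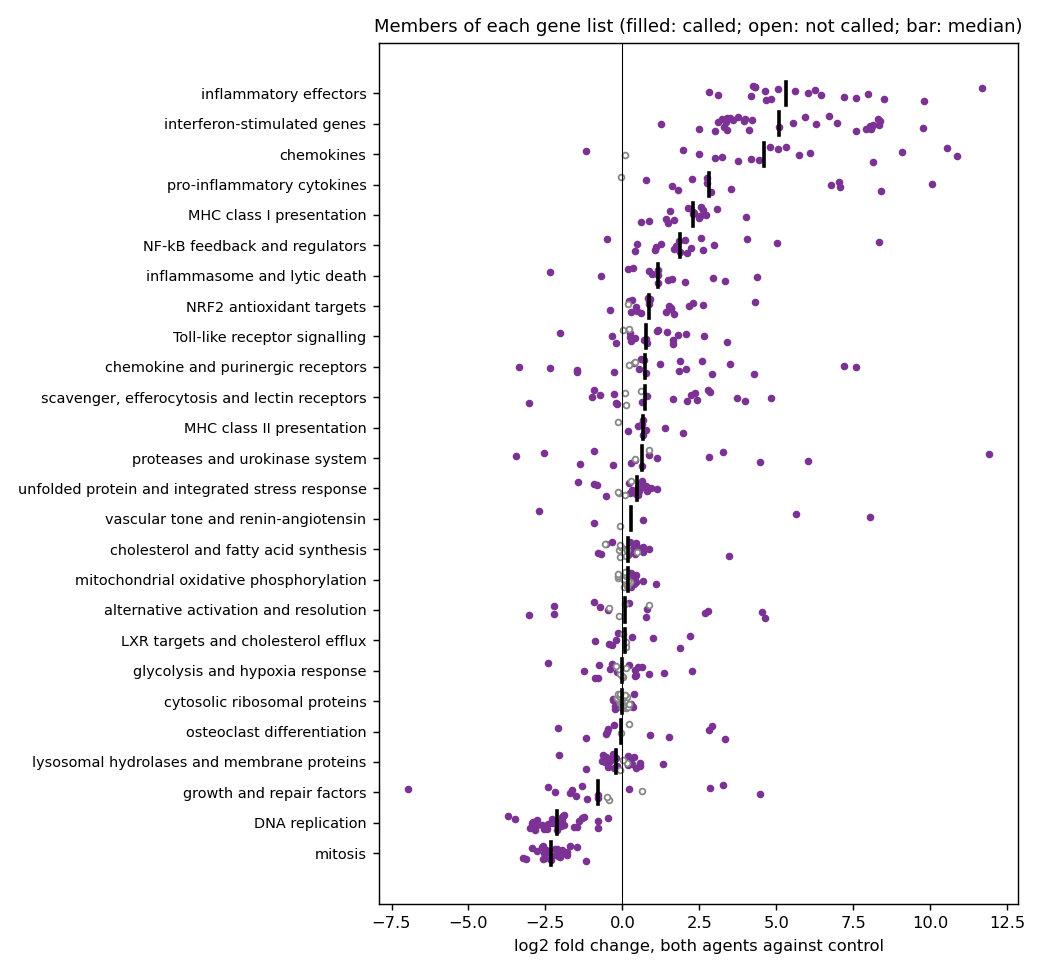
Log2 fold change of both agents against control for tested members of 26 gene lists, ordered by median. Filled points were called, open points were not, and bars are medians. Effectors and interferon-stimulated genes lie highest and DNA replication and mitosis lowest. The points of Serpinb2, Edn1, Il12b, Cfb and Tgfb3, which had no reads in 1 group, are fitted values that depend on the prior count.

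Other cell types were measured as marker sums, and their calls stand beside 29.7% of all tested genes that rose and 28.4% that fell. Neutrophil markers summed to 217 to 255 CPM in control and 439 to 492 CPM with both agents. Of 10 tested, 4 were higher, 1 was lower and 5 were not called (3 higher and 2 lower on library totals). Dendritic cell markers summed to 2.92 to 4.81 CPM and 9.32 to 9.47 CPM, and stromal markers to 0.472 to 2.67 CPM and 1.91 to 4.49 CPM. In the dendritic cell and the stromal list alike 2 of 4 tested rose and none fell. Mast cell and basophil markers summed to 3.17 to 3.81 CPM and 4.69 to 8.45 CPM, with 0 of 5 called. Erythroid and megakaryocyte markers summed to 156 to 200 CPM and 536 to 613 CPM, with 2 of 3 tested higher. The part of such cells in the results was not tested.

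Set beside the single agents, with the same controls, PgLPS alone had 7433 called genes (63.8%) and CS-PA/CNP alone 1431 (12.3%). The direct test between both agents and PgLPS called 2268 genes (19.5%). It sets no control mean against either group, but the controls enter the shared fit, and 2148 to 2291 genes were called when 1 control library was left out. Between both agents and CS-PA/CNP alone, 6054 genes were called (51.9%). The log2 change with both agents departed from the sum of the changes with the single agents in 1841 genes (15.8%), above it in 869 (7.46%) and below it in 972 (8.34%), by the interaction test of edgeR. On library totals the balance turned, with 1255 above and 715 below.

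Some genes that differed between both agents and PgLPS lay near untreated levels with both agents. The 12 given here were called between both agents and PgLPS, and the 95% interval of their fold against control lay within 1.5-fold. That choice used the contrast with control, so their closeness is a description. A call between PgLPS and control was not required. Fosl2, an AP-1 factor, lay at 48.5, 48.6 and 42.8 CPM in control and 44.5, 35.8 and 52.9 CPM with both agents, and at a mean of 105 CPM with PgLPS. Il17ra, the interleukin-17 receptor, lay at 47.5, 47.9 and 49.1 CPM in control and 54.9, 47.6 and 64.3 CPM with both agents, with 116 CPM for PgLPS. Ier2, an immediate early gene, lay at 20.5, 27 and 32.6 CPM in control and 21, 24.1 and 23.4 CPM with both agents, with 44.6 CPM for PgLPS. In each, the libraries with both agents overlapped the controls. Creg2, Lrrc75a and Rcl1 were the others below PgLPS, and Rcl1 was called slightly below control (log2 -0.30 ± 0.12).

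From the other side, 6 genes that were lower with PgLPS than with both agents lay near control. Lipa, the lysosomal acid lipase, lay at 2382, 2350 and 2358 CPM in control and 1707, 1793 and 1796 CPM with both agents, against 743 CPM with PgLPS, and was still called below control (log2 -0.42 ± 0.05). Slc40a1, the iron exporter ferroportin, lay at 186, 209 and 188 CPM in control and 145, 152 and 157 CPM with both agents, against 55.1 CPM, and was called below control (log2 -0.36 ± 0.09). Lrp8, a lipoprotein receptor, lay at 41.5, 36.3 and 38.4 CPM in control and 36.4, 29.3 and 44.6 CPM with both agents, against 15.6 CPM. Gdf15, a stress cytokine, lay at 14.3, 18.8 and 19 CPM in control and 19.3, 15.7 and 21.5 CPM with both agents, against 6.76 CPM. Fcrl1 and Fgd2 were the others, and Fgd2 was called above control by 0.27 ± 0.10, turning to -0.09 on library totals.

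Other genes lay farther from untreated cells with both agents than with PgLPS. Ass1, which makes argininosuccinate for arginine synthesis, lay at 7.97, 7.14 and 7.44 CPM in control and 401, 357 and 425 CPM with both agents, against 279 CPM with PgLPS. Ifit3b, an interferon-stimulated gene, rose by 8.16 ± 0.35, Slc13a3, a dicarboxylate transporter, by 4.50 ± 0.21, Hspa1a, a heat shock chaperone, by 3.94 ± 0.28 and Fgl2 by 3.92 ± 0.16. Hdac9, a histone deacetylase, lay at 54.1, 44.6 and 42.5 CPM in control and 5.14, 4.51 and 6 CPM with both agents, against 10.1 CPM with PgLPS. Psd3 had a log2 fold change of -2.70 ± 0.13, Ezh2, a histone methyltransferase, -2.41 ± 0.17 and Ckap2l, a spindle protein, -2.34 ± 0.24.

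**Figure D5:**
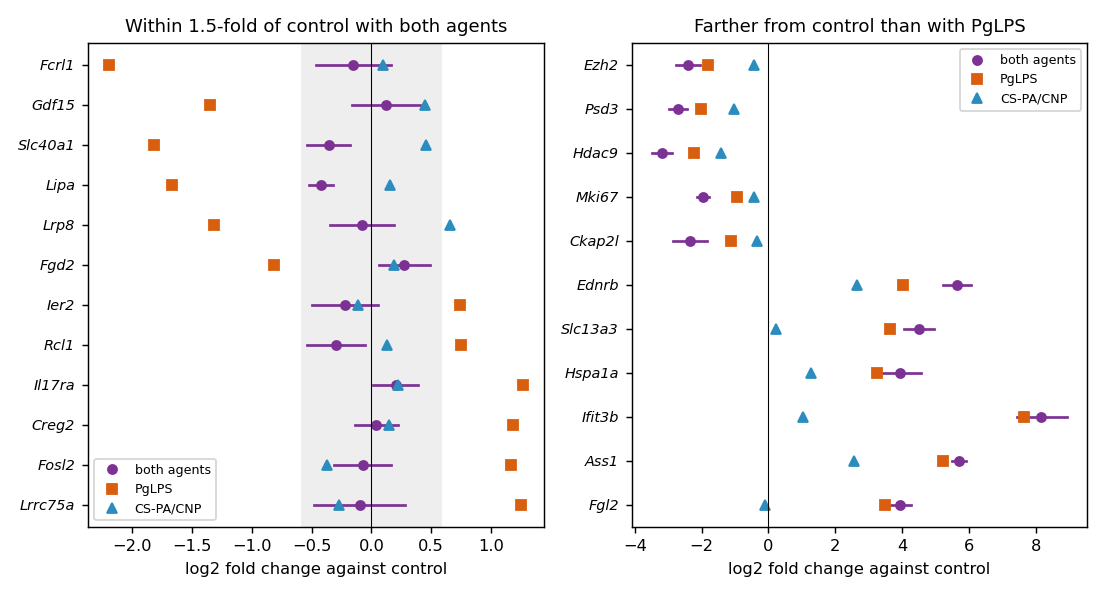
Log2 fold change against control of both agents (circles, with the 95% interval), PgLPS (squares) and CS-PA/CNP (triangles). Left, 12 genes chosen for lying within 1.5-fold of control with both agents, shaded. Right, 11 genes chosen for lying farther from control than with PgLPS.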

How the data were processed

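Messenger RNA was measured in 12 libraries of 4 groups with 3 libraries each. The authors deposited 1 table with raw read counts for 21899 genes, and 12 further columns of normalized values in it were not used. Per the submitters' processing notes, DESeq 1.30.0, HTSeq 0.9.1, HISAT2 2.0.5 and cutadapt 1.15 were used, in roles that the notes do not state. Genome build, annotation and strandedness were not given in the sources used here. Reads of a gene and of its overlapping or antisense partner can therefore not be told apart.

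The quasi-likelihood test of edgeR 4.0.16 (R 4.3.3) was run on all 12 libraries in 1 fit, with a mean per group, TMM scaling and the filterByExpr filter. This kept 11656 genes and 99.97% of the reads. A gene was called at a BH-adjusted p under 0.05 over all tested genes, all tests were 2-sided, and errors beside log2 fold changes are SEs. The code was tested on simulated data. Alternatives were DESeq2 1.42.0, other scalings, no filter, a replicate block and each library left out. Distances used log2 CPM with a prior count of 2. Reads per kilobase were computed from the counts and the gene lengths in the table. Promoter sequences are from RefSeq.

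The comparison and the 26 pathway and 8 marker lists were chosen with earlier results of these data known. Named genes are the 10 largest rises and 10 largest falls among called genes of at least 5 CPM whose libraries do not overlap, up to 3 members of smallest p and 1 uncalled member per pathway list, 6 followed genes, 6 per side near control, 6 per direction farther than PgLPS, and 4 per direction that depart from the sum of the single agents. Those described by reads gained or lost or by level per length were named after their values were seen. So were B2m, Cxcl14, Tnip3, the osteoclast genes that fell, and 3 genes of a figure caption. The 42 genes that share a symbol are not reported. A few genes that these rules pick are not reported here. Clec7a, Cxcl11, Ighm, Mx1, Mx2 and Trac were not analysed here.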

Additional observations from a re-analysis of the deposited data

Results flagged for a closer look

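The signed log2 change from control with both agents departed from the sum of the log2 changes with PgLPS and CS-PA/CNP alone in 1841 of 11656 genes (15.8%), tested as an interaction in edgeR at a BH-adjusted p under 0.05. In 869 genes (7.46%) both agents lay above the sum and in 972 (8.34%) below it, and on library totals in 1255 and 715. Below the sum on the log2 scale were Serpinb2 (-8.08), Itgb8 (-6.94), Il6 (-5.68) and Il1b (-5.44). Serpinb2 and Itgb8 had no reads in control and Il6 had 2, so their values depend on the prior count and are no measure of size. Above the sum were Klhl3 (3.79), Nptx1 (3.47), Plekhh2 (3.35) and Dmpk (2.97), all lower with both agents than in control, by less than the sum. The log2 fold change of Dmpk against control was -4.10, and -4.92 without library 1 of both agents.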

How the results depend on the processing

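The scale was the choice with most effect. On library totals 1808 genes rose and 6685 fell, 1963 of them at least 2-fold, 21.3% of the calls were higher instead of 51.1%, and 850 called genes changed sign. On that scale 216 distinct list members fell, and these log2 fold changes reversed: Acly -0.24, Atf3 -0.27, Atp5a1 -0.31, Ccl6 -0.26, Creg2 -0.32, Eno1 -0.34, Fgd2 -0.089, Lamp1 -0.35, Pltp -0.33, Rpl18 -0.0296, Rpl27 -0.03355 and Stab1 -0.28. Genes near control numbered 1973 with a tighter bound and 7731 with a bound of 2-fold. The mean distance with both agents was 1.284 with a prior count of 0.5, 1.098 over genes of at least 10 CPM and 1.227 on library totals. The summed gain over control was 33.99% on TMM-scaled totals, where it is no longer a share of reads. The 100 largest changes held 47.2% of the squared change among genes of at least 10 CPM. Leaving out 1 library gave 3115 to 3537 genes higher and 2995 to 3387 lower. DESeq2 gave 3454 and 3337. With a replicate block on the column numbers 3668 rose and 3498 fell, and 2905 genes differed from PgLPS instead of 2268. The numbers were not taken to pair the libraries, because not every same-numbered correlation of deviations was over 0.1: they were 0.04, 0.14 and -0.01 between control and both agents, and 0.12, 0.22 and 0.07 between PgLPS and both agents, where each library correlated best with its own number. Of 115 named genes called against control, 109 kept direction and side of the threshold there in every setting that gave an adjusted p. That count leaves out the tests against PgLPS and the departures from the sum. Genes near the floor limit the precision of the largest folds.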
